A study of Mus musculus with 2 samples.

Results

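The genes described here encode the proteins of the cytosolic ribosome. They were taken as protein-coding genes with a GENCODE M21 name made of Rps or Rpl and a number, with at most an a, x or l and 1 further digit, plus Rpsa, Rplp0, Rplp1 and Rplp2. This gave 83 members of 55536 annotated genes and of 22028 protein-coding genes. There were 32 members of the small 40S subunit and 51 of the large 60S subunit. Of these, 31 and 46 are the canonical genes, and 6 are minor paralogs: Rps27l in the 40S, and Rpl3l, Rpl7l1, Rpl10l, Rpl22l1 and Rpl39l in the 60S. A further 6 names fit the pattern but are annotated as pseudogenes and were left out: Rps4l, Rps12l1, Rps3a2, Rps3a3, Rpl6l and Rpl32l.

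The study sequenced polyadenylated RNA of inflammation-experienced regulatory T-cells, CD4 T cells that restrain immune responses. They were primary cells of an adult male Mus musculus aged 6 months, of the strain Foxp3CreERT2 x Rosa26YFP, in which the Foxp3 locus drives a tamoxifen-inducible Cre recombinase and Rosa26 holds a YFP reporter. The labels name a bone marrow hematopoietic cell as the origin of the cells and give 1 biological replicate with 2 technical libraries. How the inflammation was brought about is not given in the sources used here, and there is no group without it, so every value below is a level and not a change. Each ± is an SD over the technical libraries (n = 2). It holds no variation between animals.

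Technical replicate 1 had 15386113 and technical replicate 2 had 13604480 estimated counts on annotated genes, rounded to whole reads. The labelled identity was checked on marker genes. All 4 T cell markers (Cd3e, Cd3g, Trac and Cd4) and all 4 regulatory T cell markers (Foxp3, Il2ra, Ctla4 and Ikzf2) reached 1 TPM, a relative abundance scaled for transcript length and library size, in each library. Their median mean levels were 951 TPM for the T cell and 173 TPM for the regulatory T cell list. In the regulatory T cell list Foxp3 was the lowest, at 22.05 and 17.9 TPM in technical replicates 1 and 2, and Ikzf2 the highest, at 426 and 425 TPM. The summed level was 14.0 and 13.4 TPM for the CD8 genes Cd8a and Cd8b1, 3.01 and 2.21 TPM for 3 B cell markers, 0.84 and 1.06 TPM for 3 myeloid markers, and 10.04 and 11.89 TPM for the globin genes Hbb-bs and Hba-a1, in technical replicates 1 and 2. No marker was at 0 in both libraries. The bulk RNA cannot tell fewer cells of a type from less RNA per cell.

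A ribosome carries a fixed number of each protein, usually a single one, so cells need these proteins in matched amounts. Their mRNAs are short and abundant, and many begin with a C followed by a run of C and T, the terminal oligopyrimidine tract through which growth signals control their translation. The mRNAs have also been copied back into the genome many times as processed pseudogenes, intronless copies that often keep most of the coding sequence. In mice, loss of Rpl22 arrests the development of alpha-beta T cells, and Rpl22l1 is its paralog.

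Short stretches of coding sequence are shown first, because they carry the main limit and the main contrast of the measurements. The larger gene table behaves as if its reads were 50 bases long, since the effective length was 49 bases below the gene length for 99.9% of annotated genes in each library. Rpl12, a protein at the base of the ribosomal stalk, and the intronless pseudogene Gm10275 are identical over all 495 coding bases of Rpl12. The first 120 coding bases of both, from mm10 with GENCODE M21, hold no capital because no base differs.
Rpl12 (chr2:32961803-32962582, plus strand): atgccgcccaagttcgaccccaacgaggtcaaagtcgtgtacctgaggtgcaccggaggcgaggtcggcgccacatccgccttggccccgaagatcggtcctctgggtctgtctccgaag
Gm10275 (chr10:29699171-29699290, minus strand): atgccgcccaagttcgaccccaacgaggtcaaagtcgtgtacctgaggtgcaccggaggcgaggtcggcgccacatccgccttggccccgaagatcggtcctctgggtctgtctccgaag
The same holds for Rps27, a zinc finger protein of the 40S, and Rps27rt, an intronless gene annotated as protein coding, over all 252 coding bases. The minor paralog Rps27l differs from Rps27 at 28 of the first 120 coding bases, shown as capitals.
Rps27l (chr9:66946175-66947591, plus strand): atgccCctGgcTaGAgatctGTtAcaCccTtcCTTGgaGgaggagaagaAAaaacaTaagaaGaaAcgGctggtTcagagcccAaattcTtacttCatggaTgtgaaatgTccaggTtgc
Rps27 (chr3:90213040-90213615, minus strand): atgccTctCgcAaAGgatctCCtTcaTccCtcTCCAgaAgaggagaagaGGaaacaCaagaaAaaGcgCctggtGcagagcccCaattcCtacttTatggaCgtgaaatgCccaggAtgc
Rpl22l1 and Rpl22 differ at 40 bases of a 120-base coding stretch near their starts, again in capitals. Aligned end to end they match at 66.9% of the Rpl22 coding bases, and their longest identical run is 26 bases. The unrelated Rps12 and Rps27 match at 65.9% of the Rps27 coding bases, with a longest run of 7 bases. Their coding sequences, of 444 and 252 bases, differ far more in length, so this percent is no baseline for the paralog pairs.
Rpl22l1 (chr3:28806512-28806775, plus strand): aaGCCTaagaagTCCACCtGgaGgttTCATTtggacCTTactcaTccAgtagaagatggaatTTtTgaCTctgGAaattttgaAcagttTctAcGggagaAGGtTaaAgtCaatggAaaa
Rpl22 (chr4:152327505-152330042, plus strand): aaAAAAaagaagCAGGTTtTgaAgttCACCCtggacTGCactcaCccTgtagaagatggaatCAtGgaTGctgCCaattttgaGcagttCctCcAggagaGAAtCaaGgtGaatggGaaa
A read of 50 bases from the coding sequence of the first pair fits both genes equally well, and one from the coding sequence of the last pair cannot fit both paralogs. It can still fit pseudogenes of either. The coordinates of spliced genes span introns.

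Start sites were read from RefSeq promoters of GRCm38.p6, 300 bases each, which matched 63 members with 75 start sites. A C at the start site followed by at least 4 C or T on the coding strand was found in 13 of these 75 (17.3%), against 823 of 32851 promoters of all genes (2.51%). With the C allowed within 10 bases of the start site, the shares were 54.7% and 30.7%. It was present in 15 of 29 start sites of 40S genes and 26 of 46 of 60S genes. The TATA box TATAAA lay between 40 and 16 bases before the start in 1 of 75 member sites and 1.99% of all. The windows below run from 20 bases before to 20 after the start site, with the longest such tract in capitals, for 6 abundant members picked as examples after their tracts were known.
Rps27 (chr3:90213628-90213668, minus strand): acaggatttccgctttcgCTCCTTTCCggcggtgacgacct
Rps18 (chr17:33955645-33955685, minus strand): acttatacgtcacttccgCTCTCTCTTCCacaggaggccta
Rps6 (chr4:86857347-86857387, minus strand): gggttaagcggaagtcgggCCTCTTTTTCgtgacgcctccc
Rps15a (chr7:118116127-118116167, minus strand): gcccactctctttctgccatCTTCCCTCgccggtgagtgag
Rplp2 (chr7:141447631-141447671, plus strand): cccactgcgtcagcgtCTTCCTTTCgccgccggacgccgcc
Rpl13a (chr7:45128725-45128765, minus strand): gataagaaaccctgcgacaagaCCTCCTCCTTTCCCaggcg
The tract of Rps15a begins exactly at the annotated start and that of Rpl13a 2 bases after it. A match describes the letters only. These libraries do not measure translation.

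The members were among the most abundant mRNAs. They took 7.26% (95% Clopper-Pearson interval 7.24 to 7.27) and 7.36% (7.34 to 7.37) of gene counts in technical replicates 1 and 2, or 15.6% and 15.9% of TPM. The interval covers counting error only, since the reads carry no molecular identifiers and several may stem from 1 molecule. Of the 20, 50 and 100 protein-coding genes with the highest mean TPM, 8, 27 and 49 were members. TPM divides by length, and the median gene length was 604 nt for the 80 members at 1 TPM or more and 2164 nt for the other 10208 such protein-coding genes. Detection at 1 TPM in both libraries was reached by 80 of 83 members, and the same 80 passed 10 TPM. The 3 below were Rpl3l, Rpl10l and Rpl39l. The median over all members was 1345 and 1353 TPM in technical replicates 1 and 2, against 17.9 and 18.2 TPM for the other protein-coding genes at 1 TPM or more.

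Levels still differed widely among genes whose proteins are needed in matched amounts. The highest 40S member was Rps19 (ENSMUSG00000040952.16, mm10 chr7:24884371-24889806, plus strand), a protein of the 40S head, at 9657 and 9453 TPM in technical replicates 1 and 2. It ranked 3 among all annotated genes. Rps27 followed at 6556 and 7119 TPM, then Rps14 (5488 and 5475 TPM), whose human counterpart lies in the region lost in 5q minus syndrome, and Rps18 (5338 and 5243 TPM) of the 40S head. Rps9, which binds 18S rRNA in the body of the subunit, was at 3628 and 3665 TPM. These values exceeded the 40S median of 1541 and 1576 TPM more than 2-fold.

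Among the more abundant 60S members, Rpl13a, which in human cells also serves in a complex that silences translation of inflammatory mRNAs, reached 6092 and 6060 TPM. Rpl32 was at 5802 and 6011 TPM and Rpl41, which encodes an unusually short peptide, at 5334 and 5332 TPM. Rpl36 (3660 and 3607 TPM) and Rpl23a (2831 and 3031 TPM), a docking site at the exit of the peptide tunnel, followed. These 5 lay above the upper quartile of the 60S members (2296 and 2410 TPM).

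At the lower end of the 40S, Rps12 (ENSMUSG00000061983.7) was at 68.73 and 90.03 TPM, Rps27l at 138 and 120 TPM, and Rps2, at the entry of the mRNA channel, at 337 and 399 TPM. Rps13 (728 and 791 TPM) and Rps20 (776 and 810 TPM) were also low. The lowest 60S members above 1 TPM were Rpl12 (ENSMUSG00000038900.17) at 35.9 and 30.9 TPM, Rpl5 at 78.0 and 70.1 TPM, and Rpl7l1 at 111 and 112 TPM. Rpl12, Rpl5 and Rps12 are canonical proteins of every ribosome, and yet they lay below 100 TPM in both libraries. The lowest and highest canonical members thus differed 269-fold and 306-fold. Genes elsewhere in the genome that share at least 1 coding stretch of 50 bases with a member are called copies here. Some share little more, such as Rps15a-ps8 with 4.69% of such stretches of Rps15a. With copies added to each member, the lowest and highest sums differed only 27.2-fold and 23.8-fold. The median coefficient of variation between libraries was 2.07% over the 80 detected members.

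**Figure D1:**
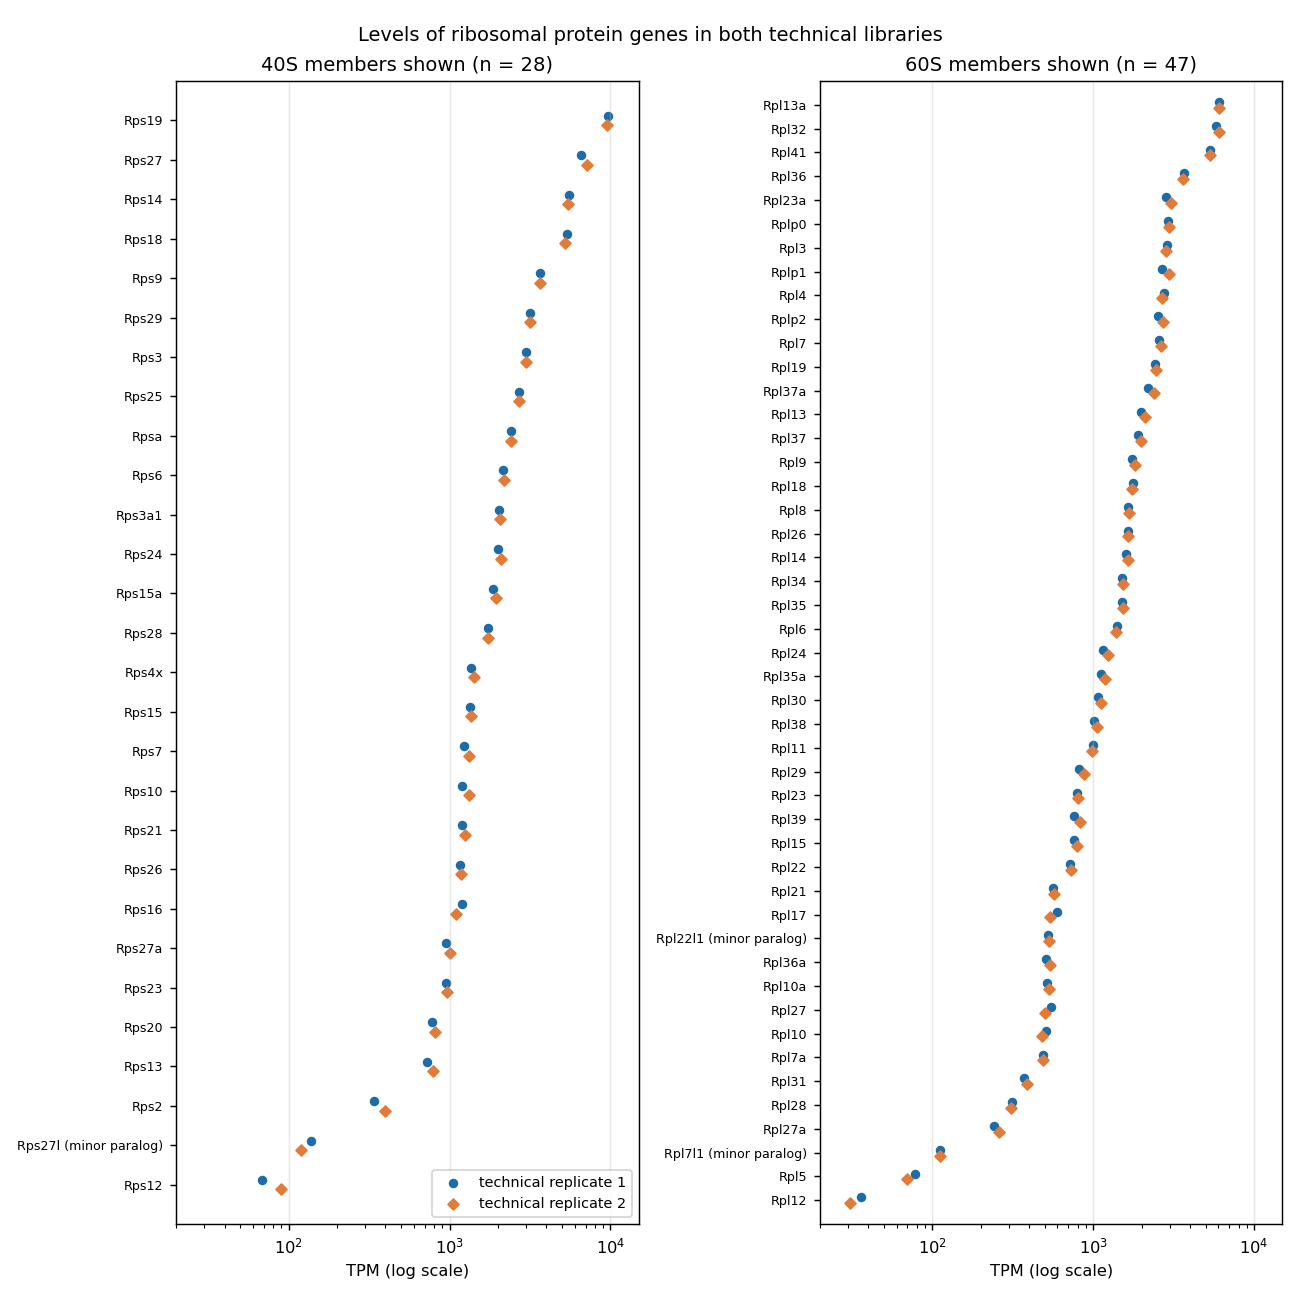
TPM (log scale) of 75 of the 80 members at 1 TPM or more, 40S on the left and 60S on the right, with 1 point per technical library. The libraries lie close together for nearly every gene, while the genes shown range from 68.7 to 9657 TPM (40S) and from 30.9 to 6092 TPM (60S).

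Grouped by role, levels still spread widely within most groups. In the stalk, which recruits the translation factors, Rplp0 (2900 and 2941 TPM), Rplp1 (2695 and 2963 TPM) and Rplp2 (2524 and 2703 TPM) stood close to each other, and Rpl12 stood far below them alone but reached 1503 and 1606 TPM with its copies. Of the pair that carries 5S rRNA into the 60S and can bind the p53 regulator Mdm2, Rpl5 was at 78.0 and 70.1 TPM and Rpl11 at 996 and 979 TPM. With copies they were at 1224 and 1223 TPM for Rpl5 and at 2229 and 2252 TPM for Rpl11. The 8 proteins around the exit of the peptide tunnel had a median of 1132 and 1177 TPM. They ran from Rpl31 (370 and 387 TPM) to Rpl23a, with Rpl19 at 2409 and 2448 TPM, Rpl26 at 1636 and 1642 TPM, Rpl35 at 1507 and 1528 TPM, Rpl39 at 757 and 826 TPM, Rpl22 at 715 and 732 TPM, and Rpl17 at 595 and 535 TPM.

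The 14 proteins of the 40S head had a median of 1535 and 1540 TPM, close to the median of all 40S members. Besides Rps19 and Rps18, the higher ones were Rps29 (3152 and 3165 TPM), Rps3 (2974 and 2972 TPM), which lines the mRNA entry, and Rps25 (2688 and 2721 TPM). Rps28, Rps15, Rps10, Rps16, Rps27a and Rps20 ranged from 776 to 1726 TPM over both libraries, and Rps12 was the lowest. Rps27a is made as a fusion with ubiquitin. A list of 9 genes whose human counterparts are mutated in Diamond-Blackfan anaemia had a median of 1165 and 1188 TPM in mouse. Their range was set by Rpl5 and Rps19, and Rps24 (1989 and 2092 TPM), Rps7 (1239 and 1314 TPM) and Rps26 (1165 and 1176 TPM) lay between.

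The 40S and 60S comparison depended on which genes were counted. The median was 1541 and 1576 TPM for the 32 members of the 40S, against 1126 and 1188 TPM for the 51 of the 60S, a ratio of 1.35 ± 0.029. Without the minor paralogs, of which 5 of 6 belong to the 60S, the medians were 1725 and 1726 TPM for 31 canonical 40S genes, against 1459 TPM in both libraries for 46 canonical 60S genes, and the ratio was 1.18 ± 0.00023. The sums went the other way: 71793 and 73009 TPM for the 40S, against 84206 and 85805 TPM for the 60S, a ratio of 0.852 ± 0.0012, with more genes in the 60S sum. Both subunits had wide and overlapping ranges, with quartiles of 1012 and 2760 TPM for the 40S, against 519 and 2296 TPM for the 60S, in technical replicate 1. No test was made, because genes are not replicates and there is 1 biological replicate.

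Many reads of these genes also fit other genes. Of the coding 50-base words of a member, a median of 83.0% occurred in the same orientation in a transcript of another gene (84.9% for 40S and 82.2% for 60S members). For 66 of 83 members at least 50% of the words were shared, and Rpl3l and Rpl39l were among those that shared none. Genes elsewhere in the genome, not themselves members, that held at least 1 such word are called copies here. There were 1121, of which 1095 were annotated as pseudogenes and 18 as protein coding. Rpl7a had 120 copies and Rpl21 and Rpl29 had 82 each, whereas Rps3, Rpl4, Rpl8, Rps9, Rpl14 and Rpl10l had 1 each. This definition was chosen after the levels of the members had been seen, but uses sequence alone.

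The copies took a large part of the signal. Of the TPM of members and copies together, the copies held 29.0% in both libraries, 29.0% and 28.8% for the 40S and 29.0% and 29.2% for the 60S in technical replicates 1 and 2. Of the 1089 copies that are processed pseudogenes, 453 (41.6%) reached 1 TPM in each library, against 690 of 9148 other processed pseudogenes (7.54%). By definition copies share words with members, most of which are abundant, so part of this contrast may be built in. In 25 members, 8 of the 40S and 17 of the 60S, the copies together exceeded the member in both libraries. The single copies with the highest level were Rps27rt (chr9:114982366-114982739, minus strand) at 4648 and 4534 TPM, Rps23-ps1 (chr3:37714740-37715164, plus strand) at 4249 and 4344 TPM, and Gm12918, a copy of Rpl13, at 3189 and 3370 TPM.

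The 3 lowest canonical members were those with the largest shares in copies. Rpl12 had 35.9 and 30.9 TPM in technical replicates 1 and 2, while its copies held 97.6% and 98.1% of the joint level, and Gm10275 alone had 1426 and 1546 TPM. Rpl5 had 78.0 and 70.1 TPM and its copies 93.6% and 94.3%, led by Gm15500 (1138 and 1143 TPM), which matches all 891 coding bases of Rpl5. Rps12 had 68.73 and 90.03 TPM and its copies 92.0% and 90.2%. For Rpl27a the copies held 87.7% and 87.1%, led by Gm7536 (1683 and 1743 TPM). Of the 10 lowest canonical members, 8 had copies above the member in both libraries, and of the 10 highest, 0 had. The member's own TPM enters both its rank and its share in copies, so part of this contrast is built in. Spearman's rank correlation between the TPM of the copies and that of the member was -0.240 and -0.265 over the 77 canonical members.

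Among members whose pseudogenes carry their own name, most TPM lay in those of Rps23, Rps6, Rps16, Rps13 and Rpl17. Rps23, near the decoding centre, had 952 and 964 TPM, and its named pseudogenes 4253 and 4352 TPM. Rps6, the substrate of the S6 kinases, had 2153 and 2173 TPM, and its named pseudogenes 2279 and 2296 TPM, nearly all from Rps6-ps4, which matches all 747 coding bases. For Rps16 the values were 1196 and 1100 TPM in the gene, against 1858 and 1886 TPM in its pseudogenes. For Rps13 they were 728 and 791 TPM, against 1587 and 1654 TPM, and for Rpl17 595 and 535 TPM, against 1456 and 1561 TPM. All 5 genes thus lay below their own pseudogenes in both libraries. They were picked for the TPM of those pseudogenes, so part of this is built in.

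When the copies were added to each canonical member, the genes drew together. The SD of log2 TPM over the 77 canonical members was 0.958 and 0.941 for member plus copies, and 1.47 in both libraries for the member alone. The lowest and highest then differed 27.2-fold and 23.8-fold. Rpl12 plus its copies reached 1503 and 1606 TPM. The lowest sum was that of Rps2, at 419 and 495 TPM. Adding copies can only raise a gene, and it credits to a member all of its copies' reads, including any that the copies give off themselves. How the reads were truly divided was not tested.

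**Figure D2:**
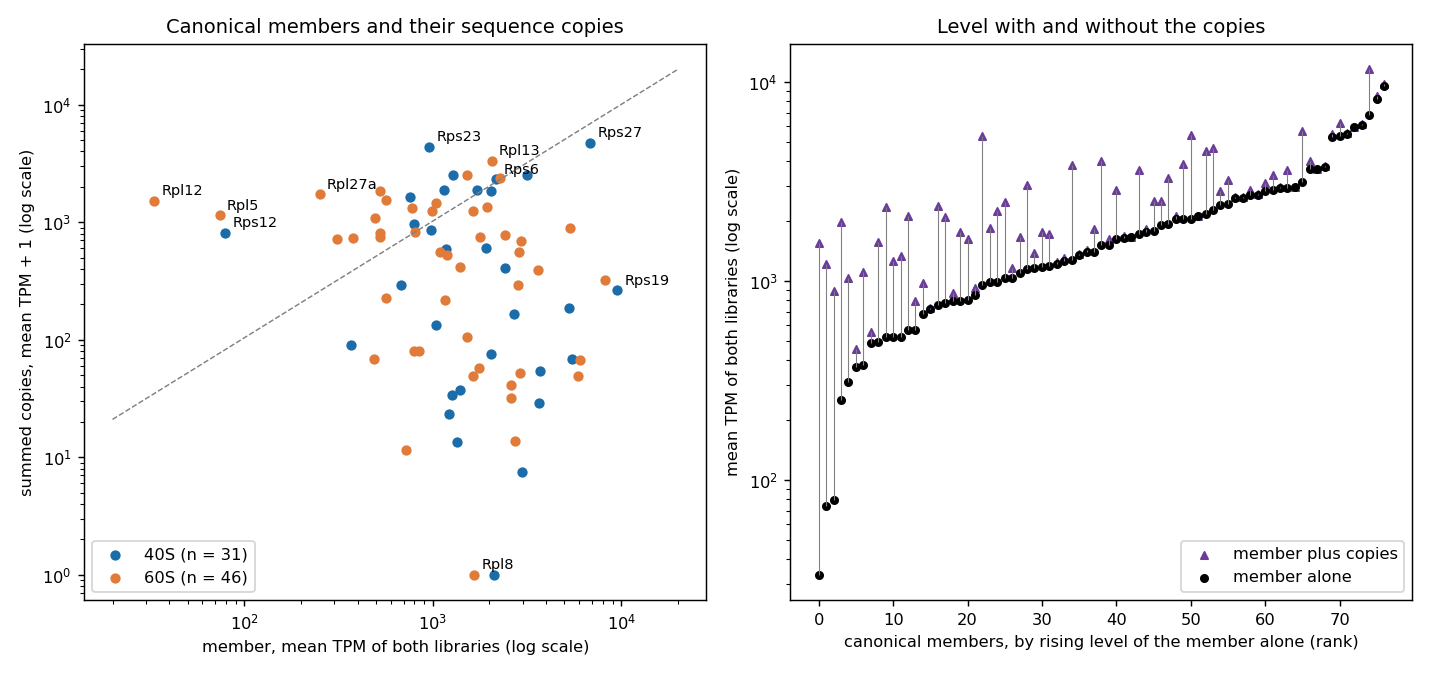
Left, mean TPM of each canonical member (x axis, log) against the summed mean TPM of its copies plus 1 (y axis, log), coloured by subunit, with equal levels on the dashed line. Rpl12, Rpl5, Rps12 and Rpl27a lie far above the line, and Rpl8, with copies at 0 TPM, lies at the bottom. Right, the 77 canonical members by rising level, alone (dots) and with copies (triangles): the largest upward steps are at the low end.

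The uncertainty that the authors deposited beside each estimated count was larger for members with more of the joint level in copies. It is a posterior SD, given here as a percent of the posterior mean count. For Rps3, with 6.74% of words shared, it was 0.0158% and 0.0151%. For Rps12 it was 9.35% and 10.7%, for Rpl10 6.60% and 7.61%, for Rpl12 5.10% and 5.88%, for Rpl17 4.31% and 4.75%, and for Rpl5 3.50% and 3.81%. The median was 1.04% and 1.13% for the 66 detected members with at least 50% of words shared, against 0.0656% and 0.0630% for the other 14. Across the 80 detected members, Spearman's rho between this percent and the share of joint TPM in copies was 0.940 and 0.948. The estimates share libraries and transcript models, so rho is a description across genes.

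The smaller gene table, counted on genome alignments with GENCODE M4, held few reads of these genes. Members took 0.554% and 0.590% of its counts, and for members with at least 100 estimated counts its count was a median of 1.34% and 1.31% of that in the larger table. The other protein-coding genes with as many counts kept a median of 39.7% and 40.5%. The larger table's most abundant other genes also kept less: with at least 10000 estimated counts, members kept a median of 0.945% and 1.04% (36 genes each), against 7.82% (132 genes) and 7.61% (111 genes) of the others. Rpl19, with every word shared, kept 0.0622% and 0.0692%. The minor paralogs Rps27l (28.67% and 27.99%) and Rpl7l1 (23.0% and 23.3%) kept most, followed by Rpl12 (14.2% in both). Over the 80 detected members, rho between the share of words shared and the percent kept was -0.626 and -0.662. How the smaller table treats reads with several matches or identical reads is not given in the sources used here.

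**Figure D3:**
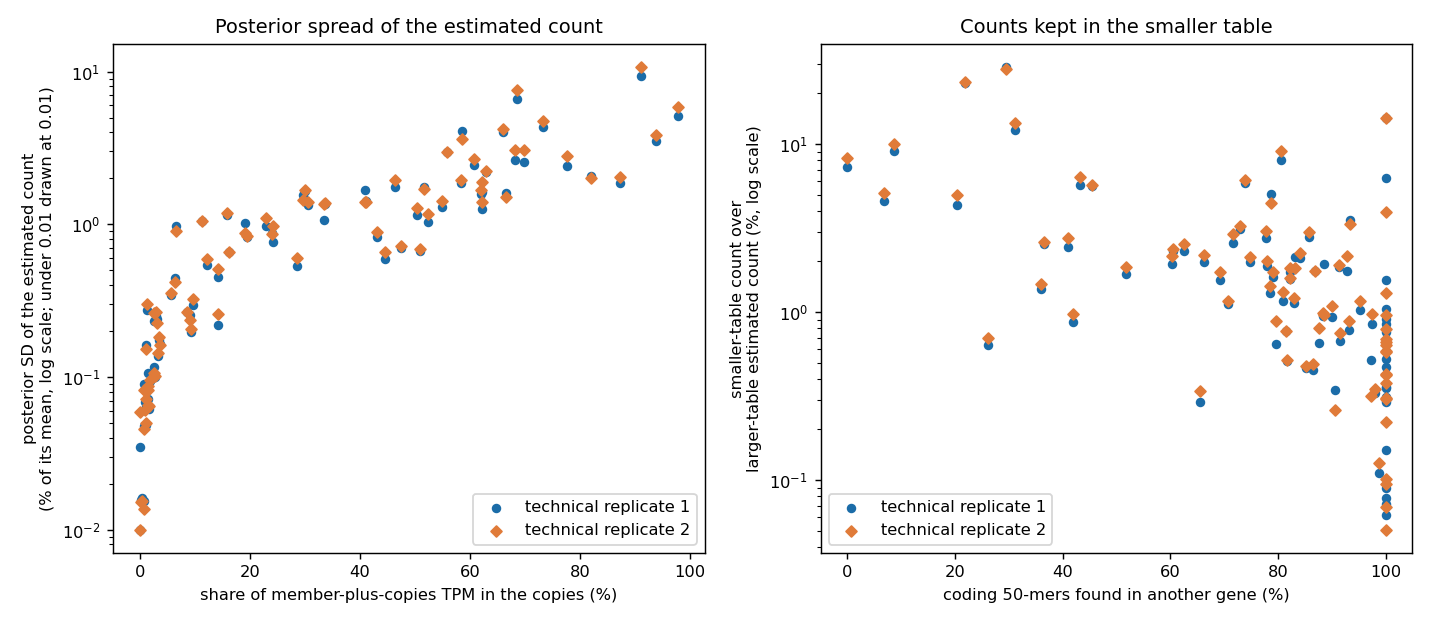
Left, the authors' posterior SD of the estimated count (percent of its mean, log scale) against the share of joint TPM held by copies, and right, the smaller-table count as a percent of the larger-table count (log scale) against the share of coding 50-base words found in another gene, for 80 members and both libraries. The SD reaches 10.7% for Rps12, and the kept percent falls to 0.0506% among members that share every word.

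Within the paralog pairs the coding sequences differ, so reads of 1 paralog seldom fit the other. Still, 80.6% of the coding words of Rpl22l1 occur in transcripts of other genes. Rpl22l1 (ENSMUSG00000039221.10) had 523 and 529 TPM in technical replicates 1 and 2, against 715 and 732 TPM for Rpl22 (ENSMUSG00000028936.15). The ratio of Rpl22l1 to Rpl22 was 0.731 and 0.722, a mean of 0.727 ± 0.0064, so that Rpl22l1 gave 42.1% ± 0.21 of the pair. In counts of the smaller table Rpl22l1 had 235 and 242, against 502 and 493 for Rpl22, a ratio of 0.480 ± 0.016.

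The transcript table changes how the Rpl22 pair reads. Of the Rpl22l1 TPM, 72.3% and 69.3% were assigned to Rpl22l1-209, a 473 nt transcript annotated as processed and not coding, and 19.4% and 21.5% to the protein-coding Rpl22l1-206. Of Rpl22l1-209, 74.8% lies in coding sequence of the other transcripts. Rpl22 had 95.3% and 96.8% of its TPM in the protein-coding Rpl22-201. Counting protein-coding transcripts alone, Rpl22l1 had 101 and 114 TPM, against 701 and 726 TPM for Rpl22, and the ratio was 0.151 ± 0.0083. The direction was the same in each of these readings, and the size was not.

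Rpl36al, which the naming rule leaves out, was likewise close to Rpl36a: 400 and 407 TPM, against 510 and 538 TPM, a ratio of 0.771 ± 0.020. With the named pseudogenes of Rpl36a added, it was 0.303 ± 0.00073. In the other 6 pairs the minor paralog was far below the canonical gene in TPM and in estimated counts. Rps27l, which p53 induces, was at 138 and 120 TPM, against 6556 and 7119 TPM for Rps27, a ratio of 0.0190 ± 0.0030. Rpl7l1, known for pre-rRNA processing, was at 111 and 112 TPM, against 2575 and 2639 TPM for Rpl7, a ratio of 0.0428 ± 0.00054. Rps27l matches 189 of the 252 coding bases of Rps27, and Rpl7l1 matches 52.3% of those of Rpl7. In estimated counts, not scaled for length, the ratios were 0.0287 for Rps27l and 0.0880 for Rpl7l1. In the smaller table the direction turned, and both minor paralogs had more counts than their canonical genes in each library. There Rps27l kept 28.67% and 27.99% of its estimated count, against 0.343% and 0.262% for Rps27. Rpl7l1 kept 23.0% and 23.3%, against 1.55% and 1.74% for Rpl7. What caused the turn was not tested.

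The remaining 4 minor paralogs were at the limit of detection. Rpl3l, a striated muscle gene, had 0 counts and 1 count, against 46665 and 40917 for Rpl3. The 0 of 15386113 counts allows up to 3 counts, by counting error alone. Rpl10l and Rpl39l, testis genes whose parents Rpl10 and Rpl39 lie on the X chromosome, had 2 counts and 1 count each, against 4740 and 3980 for Rpl10 and 5292 and 5106 for Rpl39. Rps4l, annotated as a transcribed pseudogene, had 5 and 6 counts, against 15550 and 14455 for Rps4x. At 0 to 6 counts no ratio is given for these 4.

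**Figure D4:**
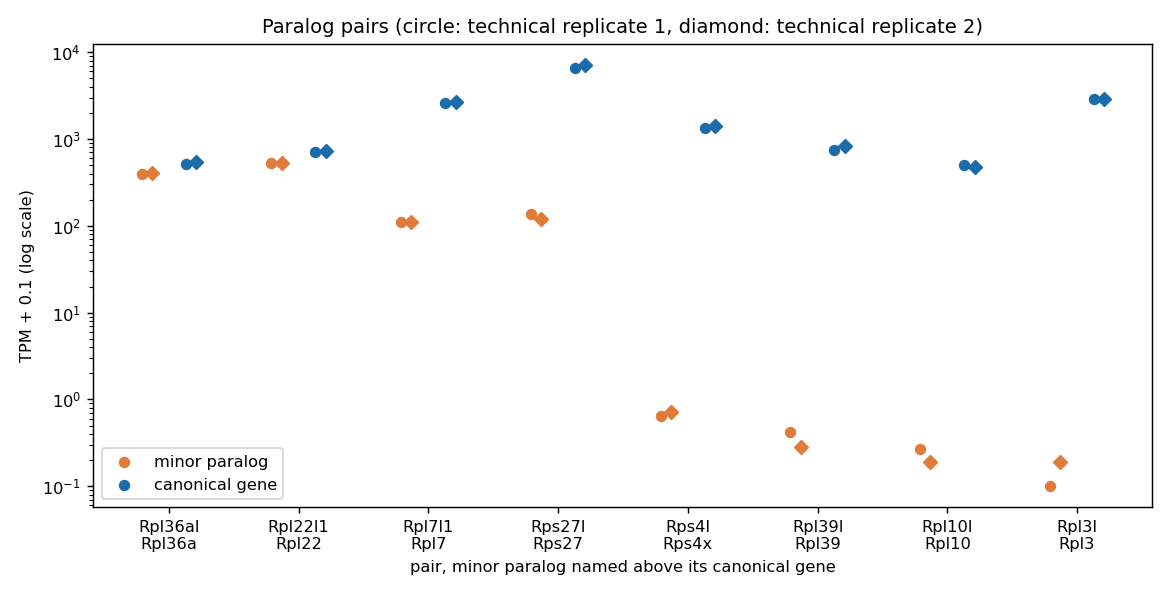
TPM + 0.1 (log scale) of the minor paralog (orange) and its canonical gene (blue) in 8 pairs, with a circle for technical replicate 1 and a diamond for technical replicate 2. Rpl36al and Rpl22l1 lie just below their partners, Rpl7l1 and Rps27l more than 10-fold below, and the other 4 minor paralogs below 1 TPM.

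Assignment to transcripts went beyond Rpl22l1. The members have 498 annotated transcripts, of which 359 were at 1 TPM or more in both libraries. Protein-coding transcripts held 80.4% and 80.6% of the members' TPM, transcripts marked for nonsense-mediated decay 8.59% and 8.40%, retained-intron transcripts 5.71% and 5.69%, and processed transcripts 5.28% and 5.36%. In 15 of the 80 detected members the leading transcript was not protein coding, 6 being retained-intron, 5 processed and 4 decay transcripts. Rpl35 had 98.1% of its TPM in the processed transcript Rpl35-203 in both libraries. Rps26 had 94.2% and 92.6% in the retained-intron Rps26-202, Rpl14 93.3% and 92.4% in a decay transcript, and Rpsa, also known as a laminin receptor, 88.8% and 89.7% in the decay transcript Rpsa-206. A median of 71.2% of the bases of these 15 transcripts lie in exons of the gene's own coding transcripts, with a range from 30.4% (Rpl5) to 99.8% (Rpl14). What decided the split between transcripts was not tested. In the most abundant 40S gene, Rps19, the coding Rps19-210 held 61.4% in both libraries and the retained-intron Rps19-206 21.6% and 24.1%.

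Rps24, singled out after its values were seen, had several coding transcripts with sizeable levels. Rps24-201 held 69.5% and 65.4%, Rps24-202 24.3% and 27.4%, and Rps24-210, with the longest coding sequence of the 3, 5.77% and 5.73% of the gene's TPM in technical replicates 1 and 2. Over detected members the leading transcript held a median of 86.0% and 85.7%. It held at least 90% in 35 members of each library and under 50% in 5.

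The technical libraries were then compared with each other, technical replicate 2 over technical replicate 1, gene by gene, with an exact binomial test (two-sided, Benjamini-Hochberg adjustment over 17334 genes). It asks whether a gene differs by more than the sampling of reads. Of 80 members tested, 27 were called (33.8%), against a background of 19.2% of all genes tested and 27.2% of the 5170 other genes with at least 1000 counts. Higher in technical replicate 2 were 21 members (background 9.42%), and lower were 6 (background 9.78%). Of the 5170 other genes with at least 1000 counts, 659 were called higher and 748 lower. By subunit, 14 of 32 members of the 40S and 13 of 48 of the 60S were called. The sizes were small: the median log2 ratio of counts was 0.02 for members, against -0.0042 for all genes tested. By DESeq2 size factors, 18 of 27 called members were higher (background 8.66% of genes higher and 19.5% called in all). On counts of the smaller table the binomial test called 0 of 80 members, against a background of 6.62% of 11019 genes. There 7 members had an unadjusted p under 0.05, and the share of all genes at that threshold is not reported here. The members held 19834 and 19315 counts in that table, against 1116314 and 1000982 estimated counts in the larger one. Ratios this small are hard to call at such counts, so this 0 is no check on the 27 calls. With edgeR's exact test and a common dispersion of 0.0111 fitted to both libraries as 1 group, 0 members were called, against a background of 1.8% of 17334 genes. The differences under test thus enter the dispersion, and this 0 is no check on the binomial calls. No member had an unadjusted p under 0.05 in edgeR's test. In the binomial test 38 of 80 members had. The background there was 5320 of all 17334 genes, and 2039 of the 5170 other genes with at least 1000 counts.

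The 5 called members with the largest ratios were Rps2, Rps27l, Rpl17, Rps16 and Rplp1. Rps2 had 4127 counts in technical replicate 2, against 3914 in technical replicate 1, a log2 ratio of 0.25 after scaling (exact binomial test, adjusted p = 1.48e-12). Rps27l had 593 counts in technical replicate 2, against 774 in technical replicate 1 (log2 ratio -0.21, exact binomial test, adjusted p = 0.0465). Rpl17 was lower in technical replicate 2 (log2 ratio -0.15) and so was Rps16 (-0.14), while Rplp1 was higher (0.13). With copies added, Rpl17 had 13611 counts in technical replicate 2, against 15286 in technical replicate 1, and was no longer called (log2 ratio 0.01, exact binomial test, adjusted p = 0.789). Its posterior SD, 4.31% and 4.75% of the count, does not enter the test. Rps16 with copies had a log2 ratio of -0.05, and it and the other 3 were still called. Rps2, Rpl17 and Rps16 share 78.8%, 100% and 100% of their coding words with other genes, and Rps27l shares 29.4%. Rpl12 (log2 ratio -0.23) and Rps12 (0.15) were not called, at adjusted p = 0.0763 and 0.228 in the same exact test. Of members that share at least 90% of words, 11 of 32 were called, against 16 of 48 of the others, and this difference was not tested.

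**Figure D5:**
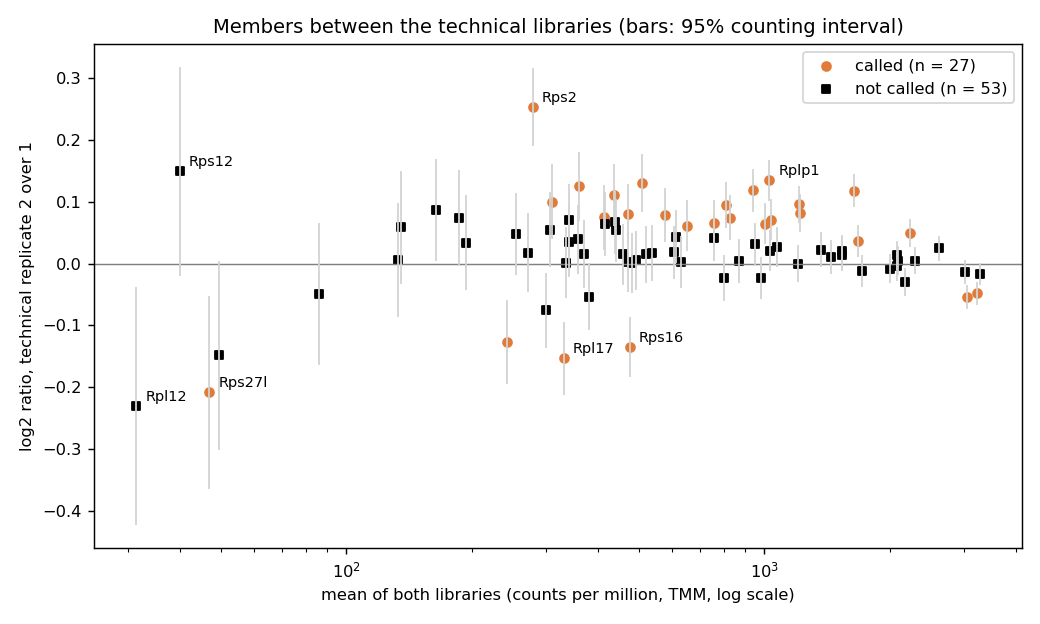
Log2 ratio of technical replicate 2 over technical replicate 1 against mean CPM (log scale) for the 80 members tested, with 95% counting intervals as bars, called members in orange and the rest in black. All members but Rps2 (0.25), Rpl12 (-0.23) and Rps27l (-0.21) lie within 0.2 of 0.

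Members were spread over 19 chromosomes, with 14 on chromosome 7, 4 on X and 0 on Y. The 4 canonical genes on X (Rpl10, Rps4x, Rpl36a and Rpl39) had a median of 634 and 682 TPM, against 1610 and 1642 TPM for the 73 on autosomes. All 4 lay within the range of the autosomal ones. With copies added, Rpl10 reached 1552 and 1590 TPM, Rpl36a 1330 and 1348 TPM, Rps4x 1396 and 1459 TPM, and Rpl39 839 and 903 TPM. The median of the 77 canonical members with copies was 2291 and 2410 TPM. Rps2 and the near-silent Rpl3l were 5890 bases apart on chromosome 17.

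Other genes of the ribosome and its making gave the context. Ribosomal protein genes outside the naming rule included Fau, a fusion with Rps30 (1794 and 1858 TPM), Rack1, a signalling scaffold on the 40S head (1194 and 1224 TPM), and Rpl36al. These 3 were detected, at levels within the range of the canonical members. All 20 ribosome assembly genes were detected too, with a median of 55.1 and 58.0 TPM, and with Npm1, a nucleolar chaperone (1085 and 1058 TPM), Nop56 (283 and 284 TPM), Ncl (257 and 269 TPM) and Nop10 (181 and 172 TPM) as the highest. The 6 RNA polymerase I genes, which make the large rRNA precursor, had a median of 37.0 and 35.6 TPM, led by Polr1d (102 and 107 TPM), a subunit shared with RNA polymerase III. Larp1 and Larp4, of the family that binds oligopyrimidine mRNAs and poly(A), were at 17.9 and 19.3 TPM and at 29.9 and 29.4 TPM.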

How the data were processed

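Polyadenylated RNA of 1 group of regulatory T-cells was analysed in 2 technical libraries of 1 biological replicate. The larger gene and transcript tables hold estimated counts, their posterior mean and SD, TPM, and each transcript's percent of its gene, as the authors deposited them per the file headers. Per the text deposited with each library, they come from mm10 transcriptome alignments with GENCODE M21. The smaller table holds whole counts that the authors took from mm10 genome alignments with GENCODE M4. Aligner, quantifier, strand setting and versions are not given in the sources used here. Strand is unknown, so antisense partners cannot be told apart. Entries that are no annotated gene (26345 of 81881) took 0.174% and 0.158% of estimated counts and stayed out of library sizes and tests.

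Members and gene lists were chosen with earlier results of these data known. Named genes, apart from some that are not reported here, were the 6 highest and 6 lowest members per subunit, 8 paralog pairs, role lists, the 5 called members with the largest ratios and the 5 with most TPM in named pseudogenes. Detection meant 1 TPM in both libraries. Copies were found from coding 50-base words of GENCODE M21 transcripts. Coding sequences were aligned with Biopython 1.88. Estimated counts were rounded for the exact binomial test (SciPy 1.17.1), with TMM effective library sizes from edgeR 4.0.16, at least 10 summed counts and an adjusted p of 0.05. edgeR's quasi-likelihood test could not be fitted, because 2 technical libraries leave no residual degrees of freedom. The test compares these libraries and no conditions. Tested on simulated data of read sampling alone, it recovered 45 of 67 genes changed 1.5-fold, 57 of 67 changed 2-fold and 64 of 66 changed 4-fold, with 4 false calls among 17141 unchanged genes. The simulated reads follow the model of the test, so few false calls were fixed in advance. The simulated folds also exceed the largest fold of a called member (Rps2, 1.19), so they do not describe the calls made here. DESeq2 1.42.0 size factors were an alternative.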

Additional observations from a re-analysis of the deposited data

How the results depend on the processing

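Of 74 alternative values computed, 52 stayed within the spread between libraries or within 1.5 times a count, and 22 did not. A reversed direction was not looked for. The smaller-table counts of Rps27l and Rpl7l1, which exceed those of their canonical genes, are not among these alternatives. Leaving out a technical replicate gives back the value of the other library. For shares and ratios that value always lies within the spread between 2 libraries. Its place among the 52 was thus fixed in advance and is no check. The shares of gene counts were then 7.26% to 7.36%. The 40S over 60S ratios were 1.33 to 1.37 for medians and 0.851 to 0.853 for sums. Rpl22l1 over Rpl22 was 0.722 to 0.731. In each case 80 members were detected and 6 of 7 other pairs were under 0.1 in TPM. The share of gene counts, 7.31% on average, was 15.7% in TPM, 0.572% in the smaller table, 8.31% with named pseudogenes and 9.57% with sequence copies. The 40S over 60S ratio of medians, 1.35, was 1.18 without minor paralogs, 1.20 for members at 10 TPM or more and 1.46 with sequence copies. The ratio of sums, 0.852, was 0.845 in estimated counts per kb, 0.864 with named pseudogenes and 0.850 with sequence copies. Rpl22l1 over Rpl22, 0.727 in TPM, was 0.710 in estimated counts, 0.480 in the smaller table, 0.151 in protein-coding transcripts alone and 0.767 with sequence copies. Of the 27 members called between the libraries, 24 were also called with DESeq2 size factors and 22 with sequence copies added. In the smaller table the binomial test called 0 of 80 members (background 6.62% of 11019 genes called). There 7 members had an unadjusted p under 0.05, and the share of all genes at that threshold is not reported here. Members hold few counts in that table, so small ratios are hard to call. With a common dispersion, edgeR's exact test called 0, with 0 at an unadjusted p under 0.05 (background 1.8% of 17334 genes called). Its dispersion was fitted to both libraries as 1 group, so differences between them enter it. Neither 0 is a check on the calls of the main test, and the cause was not tested. Sequence copies and protein-coding transcripts were alternatives chosen after seeing the data. The share with ribosomal protein genes outside the naming rule added is not reported here. No paired analysis was possible because there is 1 group. Depth limits Rpl3l, Rpl10l, Rpl39l and Rps4l, at 0 to 6 counts.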
